A study of Mus musculus with 8 samples.

Results

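The genes described here are the matrix metalloproteases (MMPs), their tissue inhibitors (TIMPs), the membrane-bound ADAM proteases and the secreted ADAMTS proteases, followed through 3 stages of optic fissure development in the mouse embryo. They were chosen by a rule on names, with earlier results of these data known. The rule took every probe set annotated with a single gene symbol that reads Mmp, Timp, Adam or Adamts followed by digits, with the ADAMTS-like genes left out. This gave 65 genes on 116 probe sets, of 18193 genes with a single symbol and 45037 probe sets on the array. They divide into 18 MMP genes, 4 TIMP genes, 28 ADAM genes and 15 ADAMTS genes. The study set out to follow gene expression in the optic fissure, the groove along the underside of the optic cup, while its edges approach each other and fuse. Fissure tissue of unmutated C57BL/6 embryos (C57BL6/J in the growth protocol), with no treatment named, was cut by laser from frozen sections at embryonic days 10.5, 11.5 and 12.5. Each array held the pooled lysates of 3 embryos, whose RNA went through 2 rounds of linear amplification and was labelled with biotin for Affymetrix arrays. The stages have 3, 3 and 2 arrays in that order, called biological replicates in the labels and named here by stage and the letters A, B and C. The labels give the pooled embryos once as littermates and once as coming from different litters, so the p-values measure the spread between pools whose origin is not settled.

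MMPs and ADAMTS enzymes cut proteins and proteoglycans of the extracellular matrix, among them collagens, fibronectin, laminins and versican, while ADAMs mostly release the outer parts of membrane proteins such as Notch, cadherins and growth factor precursors. Those with protease activity are zinc enzymes made as inactive precursors, while some ADAMs have none. TIMPs bind and block the active sites of many of these enzymes, and Timp2 also brings the precursor of Mmp2 to its activator Mmp14. The fissure edges are lined by basement membrane that is lost where they fuse, which is why enzymes of this kind are followed in the closing eye.

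Values are log2 signals, and replicate values are listed in the order A, B, C. The array medians lay between 4.37 and 4.48, and the 99th percentiles from 12.5 to 12.9 for E10.5, from 11.2 to 12.4 for E11.5, and from 12.4 to 12.6 for E12.5. Of 11 markers listed for optic cup and fissure 9 had a tested probe set, with a summed signal (log2 of the sum) from 13.4 to 13.7 for E10.5, from 12.3 to 13.3 for E11.5 and from 13.6 to 13.8 for E12.5. Markers of retinal neurons (14 of 16 tested) summed to between 8.30 and 8.98 at E10.5 and between 8.02 and 8.27 at E11.5. They reached 12.6 on array A of E12.5 and 14.4 on array B. Markers of the mesenchyme around the eye (12 of 15 tested) summed to between 10.8 and 11.98 at E10.5, with array C highest. They summed to between 10.9 and 11.7 at E11.5, and to 11.1 on array A and 10.3 on array B of E12.5. At E10.5 this sum was carried by Foxd1, at 10.6, 10.3 and 11.8, and the median followed another course. The median signal of the 12 was lowest on E10.5 C, at 4.59, reached at most 5.20 at E10.5 and lay between 5.73 and 6.65 at E11.5 and at 6.51 and 5.85 at E12.5. From E10.5 to E12.5, 9 of the 12 differed upward, with a median difference of 1.04, and 2 were called higher and 1, Foxd1, lower. Markers of pigment epithelium (9 of 9 tested) had a median signal of 5.64 to 6.12 at E10.5, 7.57 to 9.28 at E11.5, and 9.67 and 8.67 at E12.5, with 5 of 9 called higher at E12.5 than at E10.5 and 0 lower. In such bulk tissue, fewer cells of a type and less RNA per cell cannot be told apart.

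About as many protease and inhibitor probe sets lay above the signal cutoff as below it. The cutoff left out the lowest 40% of all probe sets by mean log2 signal over the 8 arrays, those below 3.94. It kept 58 of the 116 probe sets, for 38 of the 65 genes. The ADAMTS family kept 12 of its 15 genes, the TIMPs 3 of 4, the MMPs 9 of 18 and the ADAMs 14 of 28. The 14 ADAM genes below it were Adam1a, Adam2, Adam3, Adam5, Adam6a, Adam6b, Adam7, Adam18, Adam24, Adam25, Adam26a, Adam28, Adam32 and Adam34, many of them known from the testis. The MMPs below it included the gelatinase Mmp9, the collagenases Mmp1a, Mmp1b, Mmp8 and Mmp13, the stromelysin Mmp3, the macrophage elastase Mmp12, the matrilysin Mmp7 and the enamel protease Mmp20. Timp4, Adamts8, Adamts18 and Adamts19 completed the list. Mmp9 read 3.92, 3.96 and 4.19 at E10.5, 3.96, 3.83 and 3.86 at E11.5, and 3.94 and 3.73 at E12.5, and Timp4 read between 3.51 and 4.03 over the 8 arrays. A value near the cutoff gives no level, since no detection calls were used, so these genes are described as low in signal and not as absent.

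**Figure D1:**
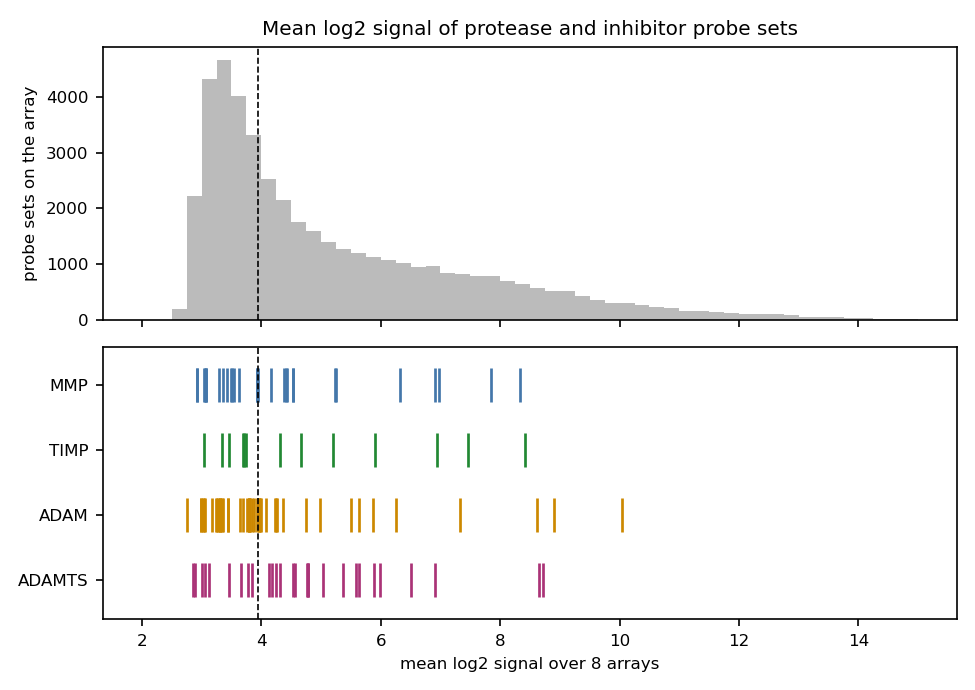
Mean log2 signal over the 8 arrays. The upper panel counts all probe sets of the array per bin of signal, and each tick in the lower panel is 1 of the 116 probe sets of the MMP, TIMP, ADAM and ADAMTS genes; the dashed line is the cutoff of 3.94. Of the ticks, 58 lie to the right of the line, 19 of the 28 in the ADAMTS row and 19 of the 46 in the ADAM row.

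Low signal was shared by a block of neighbouring genes. The windows upstream of 9 MMP genes lie together on chromosome 9 between the bases 7272264 and 7692139 of GRCm38.p6, those of Mmp13, Mmp12, Mmp1b, Mmp3, Mmp1a, Mmp10, Mmp8, Mmp20 and Mmp7. Of these 9 genes 8 lay below the cutoff, with signals from 2.71 to 4.49 on any array, and only Mmp10 passed it, with no array of any gene of the block above 4.80. The bases upstream of 8 of the 9, all but Mmp8, hold the letters TGANTCA, where N is any letter. This is a looser form of the site of AP-1, a factor known to switch on collagenase and stromelysin genes in activated cells. The AP-1 site has C or G in the middle, and the match of Mmp20 has A there. All counts and shares given here are for the looser pattern. The pattern reads the same on both strands and was searched in the 250 bases before each gene's start in RefSeq. It occurs in 6.75% of the 32851 windows of that length, and upstream of 7.82% of the 27025 genes when any window of a gene is counted. The 8 genes are counted in the latter way. For Mmp12 the match lies in a window other than the bases 7344147 to 7344446 that place it in the block. A comparison over all 65 genes is void because only 37 have a window. A match is a description of letters, not of a bound site. The stretches are printed to show the pattern in each of these 8 neighbours, of which Mmp10 alone passed the cutoff, 5 prime to 3 prime on the strand of the gene, with the pattern in capitals.
Mmp13 (chr9:7272459-7272505, forward strand): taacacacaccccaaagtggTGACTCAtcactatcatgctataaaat
Mmp12 (chr9:7347310-7347356, forward strand): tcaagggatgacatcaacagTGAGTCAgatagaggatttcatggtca
Mmp1b (chr9:7388093-7388139, reverse strand): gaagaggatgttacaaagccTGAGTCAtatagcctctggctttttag
Mmp3 (chr9:7445756-7445802, forward strand): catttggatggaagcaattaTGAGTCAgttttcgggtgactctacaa
Mmp1a (chr9:7464048-7464094, forward strand): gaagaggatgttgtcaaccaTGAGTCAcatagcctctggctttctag
Mmp10 (chr9:7502259-7502305, forward strand): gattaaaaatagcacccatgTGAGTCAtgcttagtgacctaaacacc
Mmp20 (chr9:7628116-7628162, forward strand): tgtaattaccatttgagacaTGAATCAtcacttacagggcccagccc
Mmp7 (chr9:7692007-7692053, forward strand): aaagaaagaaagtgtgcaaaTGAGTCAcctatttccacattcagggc
In these genes the pattern begins 35 bases before the start in Mmp13, 44 in Mmp12, 46 in Mmp3, 63 in Mmp10 and Mmp7, 73 in Mmp1a, 93 in Mmp1b and 95 in Mmp20.

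Across the 3 stages, 3 ADAMTS proteases changed between E10.5 and E12.5. Adamts5, which cuts the large proteoglycans aggrecan and versican, rose by 1.84 ± 0.30 (SE) on the log2 scale, a 3.58-fold higher signal (adjusted p = 0.00582). The E10.5 mean of this probe set, 3.95, lay at the cutoff, where a value gives no level, so the fold is not a measure of size. By its probe set of highest signal Adamts5 rose by 1.65 ± 0.46 and was not called (adjusted p = 0.0644). Adamts9, a versican protease conserved far back in animal evolution, fell by 2.08 ± 0.49, a 4.23-fold lower signal (adjusted p = 0.0350), and Adamts15, another aggrecan protease, fell by 0.92 ± 0.20, a 1.89-fold lower signal (adjusted p = 0.0249). These are limma p-values adjusted by Benjamini-Hochberg over all 27022 tested probe sets, from 3 arrays against 2. No MMP, TIMP or ADAM probe set passed the threshold of 0.05 in this or any other comparison of stages. The 3 called probe sets were 5.17% of the 58 tested, beside 4.64% of all tested probe sets. The 1 called higher was 1.72% of the 58, beside 3.08% of all, and the 2 called lower were 3.45%, beside 1.56%. The share of all 3 calls is thus near that of the array as a whole.

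The steps of a single day gave no call. Between E10.5 and E11.5, 0 of the 58 probe sets passed by limma, beside 0.126% of all, and 8 (13.8%, beside 19.4% of all) had an unadjusted p under 0.05, 6 of them higher at E11.5. Between E11.5 and E12.5, 0 of the 58 passed, beside 1.82% of all, and 7 (12.1%, beside 16.7% of all) had an unadjusted p under 0.05, 2 of them higher at E12.5. From E10.5 to E12.5 the share with an unadjusted p under 0.05 was 29.3%, beside 22.2% of all. In the test for any difference among the stages, limma's F test, 1 of the 58 passed, beside 2.92% of all. That one was Adamts5, with an F of 19.6 and an adjusted p of 0.0157. One-day differences were small for most: 33 of the 38 genes, each read from its tested probe set of highest signal, differed by less than 0.5 on the log2 scale between E10.5 and E11.5, and 30 of them did between E11.5 and E12.5. Over the 2 days from E10.5 to E12.5, 24 of 38 stayed within 0.5, and 5 differed by more than 1: Adamts5, Adamts1, Adamts9, Mmp2 and Timp2.

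The direction of the non-overlapping differences from E11.5 to E12.5 was mostly downward among the probe sets of these genes. The arrays of the stages did not overlap for 28 of the 58 probe sets, or 48.3%, beside 43.7% of all. In 21 of them (36.2% of the 58) both E12.5 arrays lay below the 3 arrays of E11.5, beside 14.1% of all probe sets, and in 7 (12.1%) they lay above, beside 29.6% of all. After quantile normalization the same counts were 24 and 8, and the shares of all probe sets were 24.4% below and 20.7% above. Leaving out E12.5 B gave 25 below (43.1%, beside 19.1% of all) and 12 above (20.7%, beside 40.9% of all). Leaving out E12.5 A gave 28 below (48.3%, beside 25.0% of all) and 10 above (17.2%, beside 36.4% of all). With fewer arrays non-overlap is easier, and the shares of all probe sets rose as well. These counts hold several probe sets of some genes. Counted by gene, each read from its tested probe set of highest signal, 11 of 38 lay below and 6 above with all arrays. Of all 13050 tested genes, 1965 lay below and 4041 above. Between E10.5 and E11.5 the arrays did not overlap for 9 of the 58 (15.5%, beside 22.9% of all). Between E10.5 and E12.5 they did not overlap for 23 (39.7%, beside 45.0% of all).

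The median differences of the 38 genes were close to 0. They were -0.11 from E10.5 to E11.5, -0.07 from E11.5 to E12.5 and -0.06 from E10.5 to E12.5, beside -0.22, 0.11 and -0.10 for all 13050 tested genes. The first of these depends on how arrays are scaled: over probe sets it was -0.09, and 0.09 after quantile normalization. The stage of highest mean signal was E10.5 for 18 genes, E11.5 for 10 and E12.5 for 10.

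**Figure D2:**
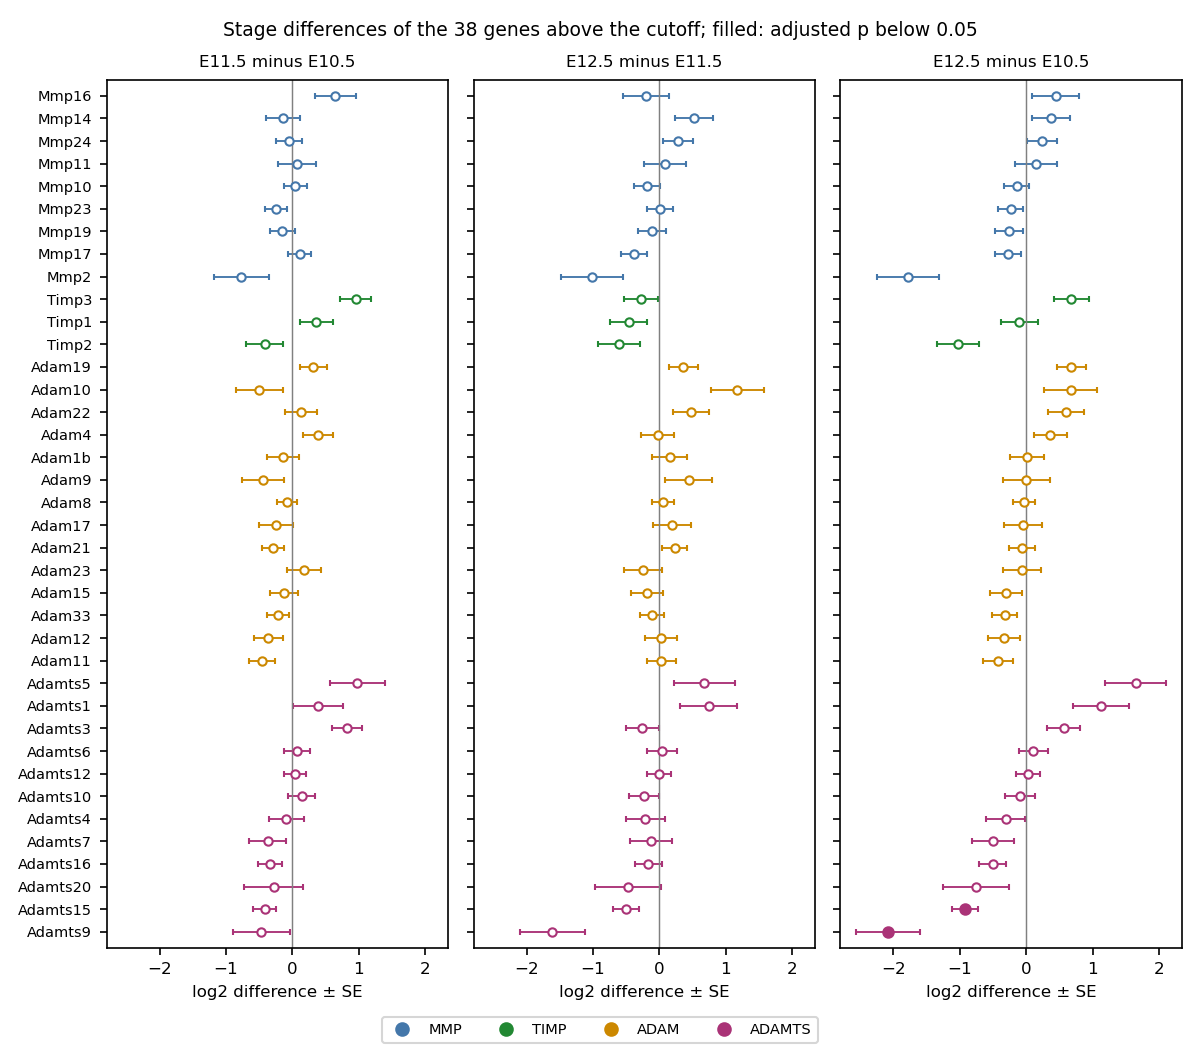
Log2 differences between stages, with their standard errors from the limma fit, for the 38 genes above the cutoff, each shown by its probe set of highest mean signal. Filled points are those with an adjusted p under 0.05, which are Adamts9 and Adamts15 in the comparison of E12.5 with E10.5; the called probe set of Adamts5 is not the one drawn here, and the one drawn had a difference of 1.65 and an adjusted p of 0.0644.

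Adamts5 was read by 3 tested probe sets. The called one (1456404_at) read 4.53, 3.47 and 3.86 at E10.5, 5.16, 4.66 and 5.01 at E11.5, and 5.54 and 6.04 at E12.5. Its E10.5 arrays B and C lay below the cutoff, where a value gives no level. Each stage lay above the one before without overlap, by 0.99 ± 0.27 and then by 0.85 ± 0.30, and neither step passed on its own (adjusted p = 0.153 and 0.188). The probe set of highest signal (1422561_at) read 6.03, 4.39 and 3.98 at E10.5, 5.73, 5.73 and 5.87 at E11.5, and 6.25 and 6.65 at E12.5. Here E10.5 A stood with the later stages while B and C did not. Without E10.5 A this probe set was called as well, with a difference of 2.27 from E10.5 to E12.5 (adjusted p = 0.00113) and of 1.59 from E10.5 to E11.5 (adjusted p = 0.0222). The third probe set (1450658_at) read 4.29, 4.10 and 4.71, then 4.81, 5.18 and 5.14, then 5.04 and 5.02, so that its difference from E10.5 to E12.5 was 0.67 ± 0.22 (adjusted p = 0.110) and was made up of 0.68 for the step to E11.5 and -0.01 for the step to E12.5. It was called without E10.5 C. Without E12.5 B the called probe set's difference was 1.59 and its adjusted p 0.0981.

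Adamts9 had the largest difference of any gene here. Its called probe set (1430352_at) read 9.84, 9.22 and 9.19 at E10.5, 8.73, 8.84 and 9.26 at E11.5, and 8.34 and 6.33 at E12.5. Both E12.5 arrays lay below all earlier ones, and B lay 2.01 below A. Of its steps, the one from E10.5 to E11.5 was -0.47 ± 0.43 and the one from E11.5 to E12.5 was -1.61 ± 0.49 (adjusted p = 0.133). A further probe set of high signal (1437785_at) read 9.37, 8.35 and 9.41, then 8.52, 8.90 and 9.23, then 8.44 and 6.99, a difference of -1.33 ± 0.45 from E10.5 to E12.5 (adjusted p = 0.116). The one of low signal (1431399_at) read between 4.45 and 4.90 on the first 7 arrays and 3.98 on E12.5 B. All 3 were lowest on E12.5 B, the array on which the neuronal markers were highest. The summed mesenchymal signal was lowest there too, but the median of those markers (5.85) lay above that of every E10.5 array. The part of tissue makeup in this fall was not tested. Without E12.5 B the difference of the called probe set was -1.07 (adjusted p = 0.499), and without E12.5 A it was -3.08 (adjusted p = 0.00211). The call was also lost without E10.5 A (adjusted p = 0.0836), E10.5 B (0.0529) or E11.5 B (0.0620). The 120 bases before the RefSeq start of Adamts9, the called gene with a window, are rich in G and C (71.7%), and the 250 bases before it hold no TGANTCA, which says nothing about the factor itself.
Adamts9 (chr6:92943535-92943654, reverse strand): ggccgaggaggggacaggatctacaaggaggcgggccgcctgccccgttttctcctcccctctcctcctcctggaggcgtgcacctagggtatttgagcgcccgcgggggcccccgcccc

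Adamts15 lay near the cutoff. It read 4.77, 4.34 and 4.43 at E10.5, 4.06, 4.34 and 3.88 at E11.5, and 3.71 and 3.47 at E12.5. The E12.5 arrays lay below both earlier stages and below the cutoff itself, where a value gives no level. Its steps were -0.42 ± 0.18 and -0.50 ± 0.20. Without E12.5 B the difference from E10.5 to E12.5 was -0.80 (adjusted p = 0.344), and without E12.5 A it was -1.04 (adjusted p = 0.0720).

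The remaining proteases of this class were not called. Adamts1, which cuts versican and aggrecan, read 6.72, 6.27 and 5.27 at E10.5, 5.88, 6.47 and 7.07 at E11.5, and 7.43 and 7.01 at E12.5. Its E12.5 arrays lay above all of E10.5 but not above all of E11.5, with a difference of 1.13 ± 0.43 from E10.5 (adjusted p = 0.150). Adamts20, the nearest relative of Adamts9 and like it a versican protease, read 7.91, 7.79 and 5.90 at E10.5, 6.56, 7.04 and 7.16 at E11.5, and 6.54 and 6.36 at E12.5. Array E10.5 C lay below both E12.5 arrays, and without it the difference from E10.5 to E12.5 was -1.40 (adjusted p = 0.0152) in place of -0.76 (adjusted p = 0.395). Adamts4, an aggrecan protease, read 6.60, 5.81 and 5.91, then 5.68, 6.04 and 6.31, then 5.63 and 5.96 by its probe set of highest signal, with overlap between all stages. By its other tested probe set (1452595_at) both E12.5 arrays, at 5.23 and 5.36, lay below all earlier ones. The difference of that probe set from E10.5 to E12.5 was -0.53 ± 0.21 (adjusted p = 0.166). Within this class of 7 genes, 6 had a tested probe set, and 4 of these 6 had a negative difference from E10.5 to E12.5 and 2 a positive one.

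Among the ADAMTS genes with other known roles, Adamts3, which removes the amino-terminal propeptide of procollagen, read 3.97, 4.87 and 4.12 at E10.5, 5.04, 5.11 and 5.26 at E11.5, and 4.91 and 4.86 at E12.5. All E11.5 arrays lay above E10.5, by 0.82 ± 0.23 in the means (adjusted p = 0.155), and without E10.5 B it was called from E10.5 to E12.5, at 0.84 (adjusted p = 0.0398). Adamts16 by its tested probe set (1441841_at) read 5.10, 5.30 and 5.43, then 4.97, 4.93 and 4.92, then 4.93 and 4.62, with every later array below E10.5 and a difference of -0.51 ± 0.20 from E10.5 to E12.5 (adjusted p = 0.170). Its other probe set (1439604_at), below the cutoff in mean signal, went the other way at E11.5. There all E11.5 arrays lay above those of E10.5 and E12.5. With no filter on low signals its difference was 0.62 from E10.5 to E11.5 (adjusted p = 0.221). It was -0.90 from E11.5 to E12.5 (adjusted p = 0.0802) and -0.28 from E10.5 to E12.5 (adjusted p = 0.514). Adamts18, mutated in people with small corneas and retinal disease, lay below the cutoff by all 3 of its probe sets, of which 1437574_at read 3.37, 3.21 and 2.998, then 3.51, 3.19 and 3.49, then 3.72 and 4.23. With no filter on low signals this probe set was called higher at E12.5 than at E10.5, by 0.78 (adjusted p = 0.0452), while its other 2 probe sets gave 0.24 (adjusted p = 0.394) and 0.23 (adjusted p = 0.424). Adamts6, Adamts7, Adamts10 and Adamts12 were tested and not called.

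**Figure D3:**
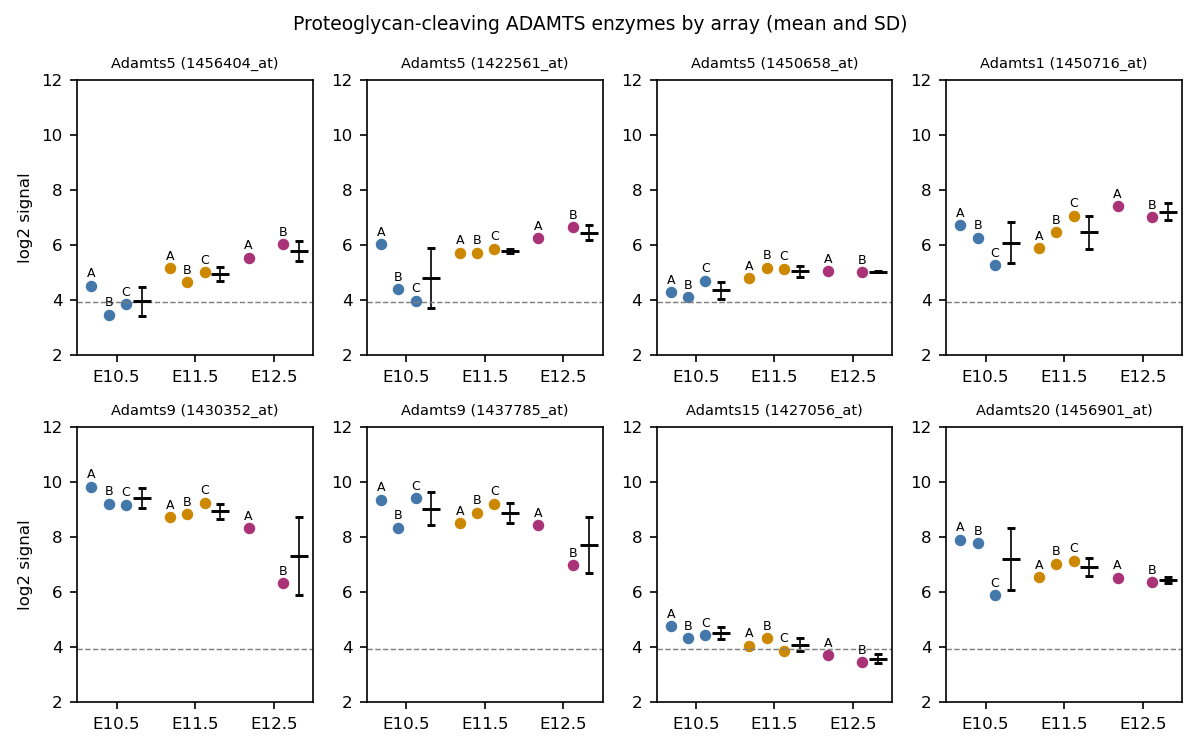
Log2 signal of 8 ADAMTS probe sets on each array (points lettered A to C), with the stage mean and SD drawn to the right of the points (n = 3, 3 and 2); the dashed line is the cutoff of 3.94. Adamts5 (1456404_at) climbs from 3.95 to 5.79 in its means, Adamts9 drops to 6.33 on E12.5 B while A stays at 8.34, and E10.5 C stands low for Adamts20.

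The MMP of largest difference was Mmp2, gelatinase A, which degrades denatured collagen and basement membrane collagen. Its probe set of highest signal (1439364_a_at) read 7.90, 8.18 and 9.69 at E10.5, 7.84, 7.70 and 7.92 at E11.5, and 7.26 and 6.35 at E12.5. The E12.5 arrays lay below all others, 1.79 ± 0.47 below E10.5 in the means, which just missed the threshold (adjusted p = 0.0517). The other probe set (1416136_at) read 5.87, 7.40 and 8.45, then 7.12, 7.02 and 7.26, then 6.34 and 5.80, a difference of -1.17 ± 0.55 (adjusted p = 0.236), and its E10.5 arrays spanned 2.58. Both probe sets were highest on E10.5 C and lowest on E12.5 B. The summed mesenchymal markers, led by Foxd1, were highest and lowest on the same arrays, while the median of those markers was lowest on E10.5 C and higher on E12.5 B, and the part of tissue makeup was not tested. Without E10.5 A both probe sets were called, the first at -2.13 (adjusted p = 0.0373). It was also called with a robust prior (adjusted p = 0.0496) and with the lowest 60% of probe sets left out (adjusted p = 0.0448).

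The activator of Mmp2 differed from it in sign by its probe set of highest signal only, and was not called. Mmp14, a membrane-anchored MMP, read 8.16, 8.23 and 8.50 at E10.5, 8.04, 8.53 and 7.89 at E11.5, and 8.58 and 8.77 at E12.5. Both E12.5 arrays lay above the earlier ones, by 0.38 ± 0.28 in the means over E10.5 (adjusted p = 0.464), and a second probe set of low signal (1440920_at) had a difference of -0.24 ± 0.29. A further one (1416572_at), below the cutoff, gave -0.18 with no filter on low signals (adjusted p = 0.503). Mmp16, a further membrane-anchored MMP, read 5.30, 6.29 and 6.30, then 6.42, 7.03 and 6.40, then 6.10 and 6.72. All E11.5 arrays lay above E10.5, by 0.65 ± 0.31 (adjusted p = 0.278). Mmp24, which is anchored in the membrane and known from neurons, read between 4.96 and 5.61, with stage means of 5.20 ± 0.26 (SD, n = 3), 5.15 ± 0.06 (SD, n = 3) and 5.43 ± 0.25 (SD, n = 2). Mmp11, stromelysin 3, read 6.65, 6.56 and 7.54, then 7.20, 6.88 and 6.88, then 7.24 and 6.90, with stage means within 0.15 of each other. Mmp17 and Mmp23, of low signal, read between 4.13 and 4.71 and between 4.34 and 4.85. The difference of Mmp17 from E11.5 to E12.5 was -0.38 ± 0.19. The probe set of Mmp23 just given differed by -0.25 ± 0.17 from E10.5 to E11.5, and its other one (1417281_a_at) by -0.53 ± 0.19 from E11.5 to E12.5 (adjusted p = 0.192). Mmp10 and Mmp19 were tested and not called.

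The inhibitors had differences of either sign, none past the threshold. Timp3, which binds to the matrix and also blocks Adam17, read 5.51, 5.33 and 5.26 at E10.5, 5.93, 6.41 and 6.63 at E11.5, and 6.24 and 5.86 at E12.5. Every later array lay above E10.5, by 0.96 ± 0.23 at E11.5 (adjusted p = 0.143) and 0.68 ± 0.26 at E12.5 (adjusted p = 0.154). A second probe set (1449335_at) gave 0.90 ± 0.23 for the first day, with E10.5 at 3.72, 4.02 and 3.93 and E11.5 at 4.27, 5.06 and 5.06. Timp2, the partner of Mmp14 in activating Mmp2, read 8.94, 8.32 and 9.22 at E10.5, 8.24, 8.38 and 8.61 at E11.5, and 7.98 and 7.61 at E12.5. By this probe set (1460287_at) E12.5 lay below both earlier stages, 1.03 ± 0.32 below E10.5 (adjusted p = 0.0858), and it was called after quantile normalization, at -0.99 (adjusted p = 0.0490), and without E10.5 B, at -1.29 (adjusted p = 0.0405). Its 3 other tested probe sets gave 0.16, 0.22 and 0.54 for the same comparison, so the probe sets of Timp2 disagree in sign. Timp1, known as inducible in many cell types, read 3.99, 4.66 and 4.999, then 5.24, 4.67 and 4.81, then 4.51 and 4.38, a difference of -0.10 ± 0.28 from E10.5 to E12.5. Of the 14 genes with several tested probe sets, 12 had the same sign in all of them for this comparison, and the others were Timp2 and Mmp14.

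The ADAM proteases known best for shedding membrane proteins had strong signals at every stage, and none was called. Adam10, the main protease that cuts Notch receptors at the cell surface and that also cuts N-cadherin, read 10.54, 9.98 and 9.63 at E10.5, 8.95, 9.53 and 10.17 at E11.5, and 10.69 and 10.76 at E12.5. Both E12.5 arrays lay above all others, by 1.17 ± 0.40 over E11.5 (adjusted p = 0.177) and 0.67 ± 0.40 over E10.5 (adjusted p = 0.346). Adam9 read 9.49, 9.11 and 8.60, then 8.12, 8.71 and 9.05, then 9.16 and 8.97. Adam17, which releases tumour necrosis factor and ligands of the epidermal growth factor receptor, read 8.63, 8.88 and 8.67, then 8.27, 8.32 and 8.85, then 8.83 and 8.54, with stage means of 8.73 ± 0.14 (SD, n = 3), 8.48 ± 0.32 (SD, n = 3) and 8.68 ± 0.21 (SD, n = 2). Within E11.5 these 3 genes were lowest on array A and highest on C, as were Adam22 and Adamts1. Over the same arrays the 99th percentile of all signals was 11.2, 11.8 and 12.4. The 3 prime minus 5 prime difference of the Gapdh control, which depends on how complete the amplified RNA is, was 3.35, 3.94 and 4.63. It differed by stage as well, at 4.71, 4.51 and 4.19 for E10.5, and 5.17 and 4.78 for E12.5. That of the actin control was 6.83 to 6.96 at E10.5, 5.45 to 6.61 at E11.5, and 6.88 and 7.21 at E12.5. The part of array range and RNA quality was not tested.

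The other ADAMs with protease activity were not called either. Adam19 read 3.78, 4.02 and 4.05 at E10.5, 4.07, 4.25 and 4.47 at E11.5, and 4.28 and 4.98 at E12.5, each later stage above E10.5 without overlap, by 0.68 ± 0.22 at E12.5 (adjusted p = 0.105). Adam12 read 4.76 on E10.5 A and between 3.77 and 3.98 on the 7 other arrays. Adam33 read between 4.08 and 4.73, with E12.5 0.32 ± 0.19 below E10.5 in the means. Adam15 read 6.13, 5.94 and 5.90, then 5.74, 5.72 and 6.15, then 5.86 and 5.51, with a difference of -0.31 ± 0.24 from E10.5 to E12.5. Adam4, known from the testis, read 5.04, 5.50 and 5.64, then 6.03, 5.73 and 5.58, then 5.68 and 5.83, with E11.5 0.39 ± 0.22 above E10.5 in the means.

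The 3 ADAMs that have lost protease activity and act in adhesion between neurons had differences of either sign. Adam22, a receptor for LGI proteins at synapses, read 7.44, 7.10 and 6.86 at E10.5, 6.98, 7.33 and 7.47 at E11.5, and 7.74 and 7.73 at E12.5. Both E12.5 arrays lay above all others, by 0.60 ± 0.27 over E10.5 (adjusted p = 0.219). Adam23 read 5.02, 5.46 and 5.88, then 5.40, 5.46 and 6.01, then 5.32 and 5.45, with all stages overlapping. Adam11 read 5.16, 5.02 and 5.58, then 4.72, 4.87 and 4.80, then 4.67 and 4.99, and its difference from E10.5 to E12.5 was -0.42 ± 0.22 (adjusted p = 0.287). No gene of this trio was called, while 11 of the 14 tested neuronal markers were called higher at E12.5 than at E10.5.

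**Figure D4:**
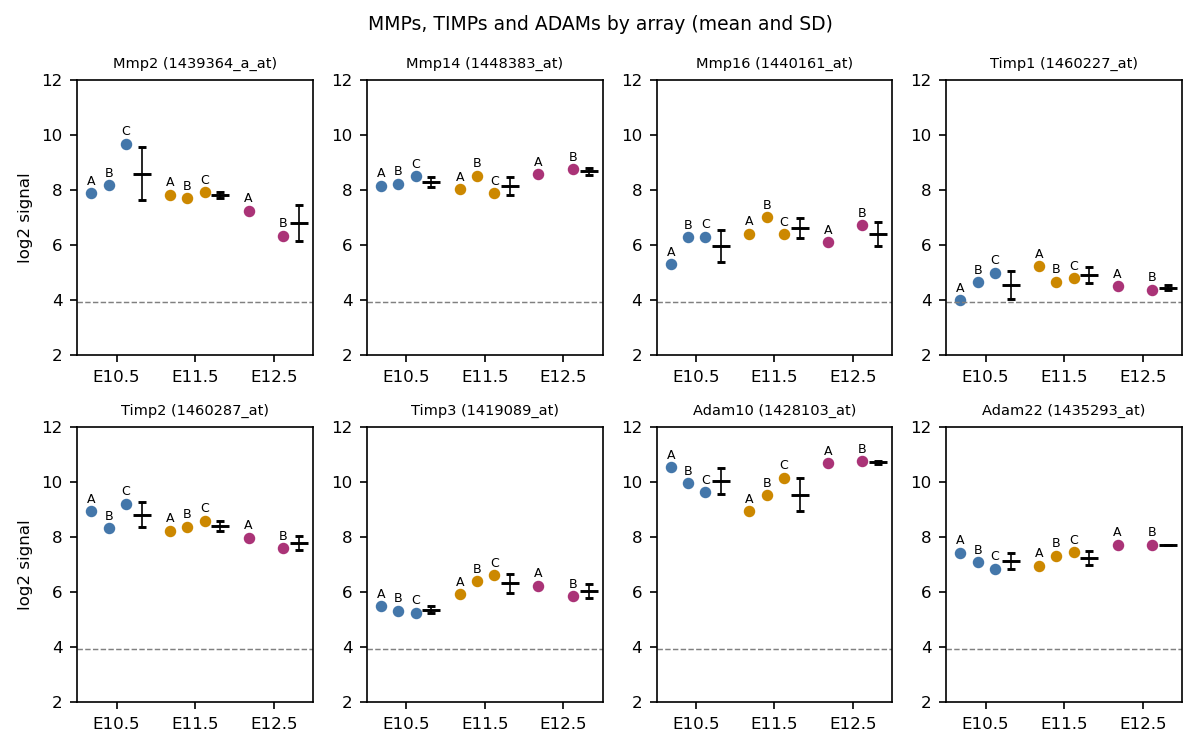
Log2 signal of 8 MMP, TIMP and ADAM probe sets on each array (points lettered A to C), with the stage mean and SD to the right of the points (n = 3, 3 and 2); the dashed line is the cutoff of 3.94. Mmp2 is highest on E10.5 C (9.69) and lowest on E12.5 B (6.35), Timp3 is lowest at E10.5, and Adam10 climbs from array A to C within E11.5.

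Of 39 genes listed as regulators or activators of these proteases, 25 had a tested probe set. Their median differences for the successive days were -0.11 and -0.15, and 0.03 from E10.5 to E12.5. Those of all 13050 tested genes were -0.22, 0.11 and -0.10. By the probe set of highest signal, 1 was called higher and 0 lower between E10.5 and E11.5, beside 20 and 3 of all tested genes. Between E11.5 and E12.5, 1 was called higher and 0 lower, beside 233 and 31 of all. From E10.5 to E12.5, 1 was called higher and 2 lower, beside 455 and 232 of all. The gene called between E10.5 and E11.5 was Pcolce, which enhances the trimming of procollagen by Bmp1. It was 2.50 ± 0.40 higher at E11.5 (adjusted p = 0.0401) by 1 probe set, and 0.41 (adjusted p = 0.211) by the other. From E10.5 to E12.5, Pcsk5, a convertase that removes propeptides from secreted precursors, fell by 1.99 ± 0.42 (adjusted p = 0.0237), from 9.55, 8.99 and 10.71 to 7.88 and 7.64. Its second probe set gave -0.87 (adjusted p = 0.0490), and -1.02 from E11.5 (adjusted p = 0.0430). Pcolce2 fell by 1.13 ± 0.27 (adjusted p = 0.0358). Spock1, a proteoglycan of neural tissue, rose by 1.80 ± 0.34 (adjusted p = 0.0132) over this interval, and by 1.91 ± 0.34 from E11.5 (adjusted p = 0.0154), to 4.998 and 6.46 at E12.5. Its second probe set gave 0.53 and 0.43 for these comparisons and was not called. Reck, a membrane-anchored inhibitor of MMPs, read 8.27, 8.33 and 6.995, then 7.90, 8.31 and 8.67, then 9.20 and 9.22, and its difference of 1.34 ± 0.40 from E10.5 to E12.5 was not called (adjusted p = 0.0804); Reck was singled out after its values were seen.

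Of 28 matrix proteins listed as substrates of MMP and ADAMTS enzymes, 22 were tested. Their medians were -0.15, -0.23 and -0.34 for the 3 comparisons in the same order, beside -0.22, 0.11 and -0.10 for all tested genes. The calls from E10.5 to E12.5, by the probe set of highest signal, were 2 higher and 0 lower, beside 455 and 232 of all 13050 tested genes. They were decorin (Dcn), at 2.15 ± 0.26 (adjusted p = 0.000783), and the basement membrane linker nidogen 2 (Nid2), at 1.29 ± 0.28 (adjusted p = 0.0254). Dcn was also called from E10.5 to E11.5, at 1.48 ± 0.23 (adjusted p = 0.0359). Col1a2 was not called by its probe set of highest signal, at 1.07 from E10.5 to E12.5 (adjusted p = 0.180). Its other tested probe set was called in this comparison, at 2.03 (adjusted p = 0.0154). Dcn and Col1a2 are themselves on the list of mesenchymal markers, whose median difference from E10.5 to E12.5 was 1.04. That of the pigment epithelium markers was 1.66, and the part of tissue makeup was not tested. Nid2 read 3.83, 4.45 and 4.26, then 4.84, 5.52 and 5.67, then 5.63 and 5.31. Versican (Vcan), the substrate shared by Adamts1, Adamts5, Adamts9 and Adamts20, was not called: its probe set of highest signal read 10.37, 9.72 and 10.74, then 9.42, 9.88 and 10.19, then 10.37 and 8.71. Like Adamts9, it was lowest on E12.5 B.

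Of 29 membrane proteins listed as substrates of ADAM shedding, 25 were tested. Their medians were -0.25, 0.33 and -0.06, beside -0.22, 0.11 and -0.10 for all tested genes. By the probe set of highest signal, 5 were called higher and 0 lower between E11.5 and E12.5. Beside them stand 233 higher and 31 lower of all 13050 tested genes. The 5 were Dll1, a Notch ligand, Notch1 itself, the stem cell factor Kitl, the receptor phosphatase Ptprz1 and the adhesion molecule Ncam1. The same 5 were called from E10.5 to E12.5, beside 455 higher and 232 lower of all tested genes, with E12.5 arrays shared by both comparisons. Ptprz1 read 7.32, 7.88 and 7.15, then 7.26, 8.05 and 8.34, then 9.55 and 9.63, a rise of 1.70 ± 0.35 from E11.5 (adjusted p = 0.0344) and 2.14 ± 0.35 from E10.5 (adjusted p = 0.00650). Ncam1 read 8.38, 8.66 and 9.03, then 8.21, 8.98 and 9.13, then 10.10 and 11.14, a rise of 1.85 ± 0.39 from E11.5 (adjusted p = 0.0396). Kitl read 5.45, 5.55 and 4.62, then 4.94, 4.75 and 6.11, then 7.06 and 8.27, a rise of 2.40 ± 0.46 from E11.5 (adjusted p = 0.0223). The second probe sets of Kitl and Notch1 were not called, nor was 1 of the 3 other probe sets of Ncam1 and 1 of the 2 others of Ptprz1. Dcc, also on this list, was not called by its probe set of highest signal, at -0.38 from E11.5 (adjusted p = 0.463). Its 2 other tested probe sets were called, at 4.81 (adjusted p = 0.000375) and 4.39 (adjusted p = 0.0021) from E11.5. Both were also called from E10.5 to E12.5, at 5.37 and 4.83. Of the 5, Ncam1, Kitl, Dll1 and Notch1 were higher on E12.5 B than on A, as were the neuronal markers, and the part of tissue makeup was not tested. Of the 10 regulators and substrates called from E10.5 to E12.5, by the probe set of highest signal, Dll1 and Dcn kept an adjusted p under 0.05 without E12.5 B and the other 8 did not.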

How the data were processed

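Optic fissure tissue from 8 pools of embryos was measured on 8 arrays. The authors deposited log2 signals, 1 per probe set and array; the submitters' processing notes list GCOS 1.4, and the background correction, summary and normalization steps are not given in the sources used here. Amplification in 2 rounds, per the labels' protocols, favours the 3 prime ends of transcripts and can differ between arrays. Gene symbols came from the platform annotation of 2016: of the deposited probe sets, 34958 had 1 symbol, 932 several and 9211 none. All 65 genes matched a RefSeq gene identifier, and 5 probe sets that name a second gene were left out.

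After 64 control probe sets and the lowest 40% by mean signal were left out, 27022 probe sets were fitted with limma 3.58.1 (R 4.3.3), with no further normalization, in 1 model of stage over all 8 arrays with 5 residual degrees of freedom. Moderation had a trend on mean signal. Tests were two-sided, with Benjamini-Hochberg adjustment over all tested probe sets and a threshold of 0.05. The number of arrays limits the precision. The fit was checked on simulated data.

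Genes were named by a rule: every called probe set, the 2 largest differences each way per family and comparison, a fixed list of well-known members, and called genes of the pathway lists. Members and lists were chosen with earlier results of these data known. Promoter bases are those of RefSeq, build GRCm38.p6. Alternatives were quantile normalization, median centring, 16 or 64 added before log2, no filter or the lowest 60% left out, no trend, a robust prior, only the 2 stages compared, array weights, a replicate block and each array left out in turn. Leaving out E10.5 C and E12.5 B together, and the overlap counts under other settings, were added after the values were seen.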

Additional observations from a re-analysis of the deposited data

How the results depend on the processing

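Calls of protease and inhibitor probe sets rest on few arrays. From E10.5 to E12.5, 3 were called; the count was 1 with no trend in the prior, with only the 2 stages compared and with the replicate block (Adamts5 each time), 10 with array weights, and 0 without E10.5 C and E12.5 B together. Leaving out single arrays gave 0 (without E12.5 B) to 5 (without E10.5 A or without E10.5 C). From E10.5 to E11.5 the count of 0 became 8 with array weights and ranged from 0 to 1 with single arrays left out, Adamts5 being called without E10.5 A. From E11.5 to E12.5 it became 26 with array weights and ranged from 0 to 1, Adamts9 being called without E12.5 A. For any stage the count of 1 was 2 after quantile normalization, 0 with the lowest 60% left out (the called probe set of Adamts5 is then not tested), 28 with array weights, 0 with the replicate block and 0 without E10.5 C and E12.5 B, and ranged from 0 (without E12.5 B) to 3 (without E10.5 C). The array weights did not converge: E11.5 B received 218 and the other arrays between 0.163 and 1.20, so those counts rest on that array. The count of probe sets whose E12.5 arrays lay wholly above E11.5 was 7 with all arrays and 9 to 12 with single arrays left out, and that of those wholly below was 21 and 22 to 28. The shares of all probe sets with single arrays left out were 31.9% to 44.0% above and 17.3% to 25.0% below.

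Adamts9 lost its call with no trend (adjusted p = 0.0507), with only 2 stages (0.0996), with the replicate block (0.0730) and without E10.5 A (0.0836), E10.5 B (0.0529), E11.5 B (0.0620) or E12.5 B (0.499). Adamts15 lost it with no trend (0.0587), with only 2 stages (0.0605), with the replicate block (0.0502) and without E12.5 A (0.0720) or E12.5 B (0.344). The called probe set of Adamts5 kept it in every fit listed in the methods that tested it except without E12.5 B, also in combination with E10.5 C. The letters do not pair the arrays: deviations of arrays with the same letter correlated between -0.39 and 0.13. Of 90 differences of named genes followed through the alternatives listed in the methods, 1577 refits kept direction and side of the threshold, 35 gained a call, 13 lost one and 52 turned the sign of an uncalled difference; no called difference reversed. Quantile normalization moved the median of all probe sets from -0.18 to -0.02 for E11.5 against E10.5 and from 0.10 to -0.04 for E12.5 against E11.5, and the share of all calls that were higher from 76.5% to 91.3% and from 89.0% to 67.6%. Among the pathway genes, Pcolce lost its call in 14 of 20 refits and Dcn from E10.5 to E11.5 in 12 of 20.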
